A study of Homo sapiens with 6 samples.

Results

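The replication-dependent core histone genes encode the H2A, H2B, H3 and H4 proteins around which DNA is wound in the nucleosome. They were taken as the protein-coding rows whose Ensembl identifier carries a current symbol of the form H2AC, H2BC, H3C or H4C followed by a number. Of the 60708 gene rows, 61 met this rule: 15 H2A, 18 H2B, 13 H3 and 15 H4 genes. The table of names held 63 such symbols. The other 2, H2AC18 and H2AC19, had no row under their current identifiers, and 2 rows with older identifiers, with 8 counts in total over the 6 libraries, were left out.

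The study measured RNA by sequencing in U2OS cells, an established human osteosarcoma line described as wild type. Control cells were kept in the solvent DMSO, and treated cells, called PARGi here, in 25 µM PDD00017273 for 4 days. PDD00017273 inhibits PARG, a glycohydrolase that removes chains of poly(ADP-ribose) from proteins. Each group had 3 biological replicates, so the comparison covers 1 line, 1 dose and 1 time point, and total RNA was used for the libraries, with a kit that keeps the strand.

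Library totals ran from 60286931 to 80605145 counts, with overlapping groups. Levels are given as counts-per-million (CPM) after TMM scaling, which corrects for library size but not for gene length. Summed markers of mesenchymal and osteoblast cells (RUNX2, COL1A1, COL1A2, VIM, SPARC, ALPL and TWIST1) lay between 8318 and 8904 CPM in the 6 libraries, most of it from COL1A1, VIM and SPARC. TWIST1 was at or near 0. Of the 6 tested, RUNX2 (83.3 to 69.0 CPM), COL1A2 (13.0 to 7.41 CPM) and SPARC (1677 to 1583 CPM) passed the test as lower in PARGi and ALPL (4.68 to 5.52 CPM) as higher. Among all tested genes 11.0% were called lower and 13.2% higher. The 11 markers of blood, epithelial, liver, endothelial, glial and germ cells summed to between 5.92 and 6.74 CPM, with the germ cell genes TNP1 and PRM1 at 0. Of these 11, 5 were tested, and the epithelial gene CDH1 passed as higher in PARGi, from 0.718 to 1.14 CPM. EPCAM, also epithelial, went the other way, from 3.53 to 3.02 CPM with separate groups, and did not pass (adjusted p by edgeR = 0.0912). The part of all these markers in the results below was not tested.

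A nucleosome core holds H2A-H2B dimers and H3-H4 dimers, and a dividing cell makes most of its core histones while it copies its DNA. The replication-dependent genes lie in clusters and are transcribed in S phase in nuclear bodies organised by NPAT, which cyclin E-CDK2 activates. Their main mRNAs have no introns and no poly(A) tail. They end in a short stem-loop that SLBP binds, and several of the genes are also known to give longer, polyadenylated transcripts that read past that end. Core histone genes of one type are near-identical copies, and how reads that match several copies were treated is not given in the sources used here, so the value of a single gene is less certain than that of a sum.

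The 3′ stem-loop was looked for in the transcripts of the 59 members that GENCODE 29 holds, since it marks the mature end that the annotation may or may not reach. A match was a stem of 6 base pairs closed by a loop of 4 bases, with at most 3 differences from the consensus of 16 bases. It was found in an annotated transcript of 29 members (5 H2A, 11 H2B, 5 H3 and 8 H4), against 0.376% of 19684 protein-coding genes, in 6 different forms. The genes with most counts of each type that have it, and some that differ in their loop or stem, read as follows, 5′ to 3′ with 5 flanking bases on each side and the paired bases in capitals.
H2AC6: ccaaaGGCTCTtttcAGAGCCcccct
H2AC11: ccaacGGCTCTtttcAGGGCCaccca
H2BC21: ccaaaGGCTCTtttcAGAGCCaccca
H2BC5: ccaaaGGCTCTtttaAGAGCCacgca
H3C10: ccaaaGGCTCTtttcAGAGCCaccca
H3C6: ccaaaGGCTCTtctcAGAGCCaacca
H4C8: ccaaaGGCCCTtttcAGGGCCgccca
H4C9: aaaaaGGCCCTttttAGGGCCcctaa
The stem of 20 of the 29 members opens with GGCTCT and closes with AGAGCC. H4C8 has the form with GGCCCT and AGGGCC, which 8 members share, all of them H4 genes. H2AC11 pairs GGCTCT with AGGGCC, so that its stem has a G-T pair. The annotation does not end there for most of these genes: 23 of the 29 had a transcript that ran more than 100 bases past the stem-loop, by 1128 bases in H2AC6, 1729 in H2BC21, 769 in H3C10 and 1655 in H4C8. A polyadenylation hexamer (AATAAA or ATTAAA) stood in the last 40 bases of an annotated transcript of 21 members.

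Core histone transcripts were lower in PARGi. Summed over the 61 genes they came to 204, 207 and 205 CPM in DMSO replicates 1 to 3 and to 156, 158 and 158 CPM in PARGi replicates 1 to 3. Every PARGi library was below every DMSO library, and the group means, 205.6 ± 1.53 and 157.4 ± 0.952 CPM (SD, n = 3 each), differ by 23.5%, a log2 difference of -0.39. The share of core histones in the library total ran from 0.0156% to 0.0209%. A lower share of cells in S phase, less histone RNA per cell and a change in the longer, polyadenylated transcripts alone cannot be told apart in these bulk libraries. How far the libraries captured transcripts without a poly(A) tail was not tested.

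Gene by gene, 27 members had enough counts for edgeR's quasi-likelihood test, with 48 to 33138 counts over the 6 libraries. At an adjusted p below 0.05 over all 20409 genes tested, 11 of the 27 fell in PARGi (40.7%) and 0 rose, where 24.3% of all tested genes were called, 11.0% as lower and 13.2% as higher. At an unadjusted p below 0.05 from edgeR the counts were 12 lower and 0 higher, and DESeq2 called 10 lower and 0 higher. The log2 fold change (log2FC) was below 0 for 21 of the 27 and for 51.9% of all tested genes, and the medians were -0.34 and -0.0070. In 12 of the 27 every PARGi library was below every DMSO library (18.2% of all tested genes), and 0 of the 27 had every PARGi library above (19.8%). Confidence intervals of 15 of the 27 members included 0.

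**Figure D1:**
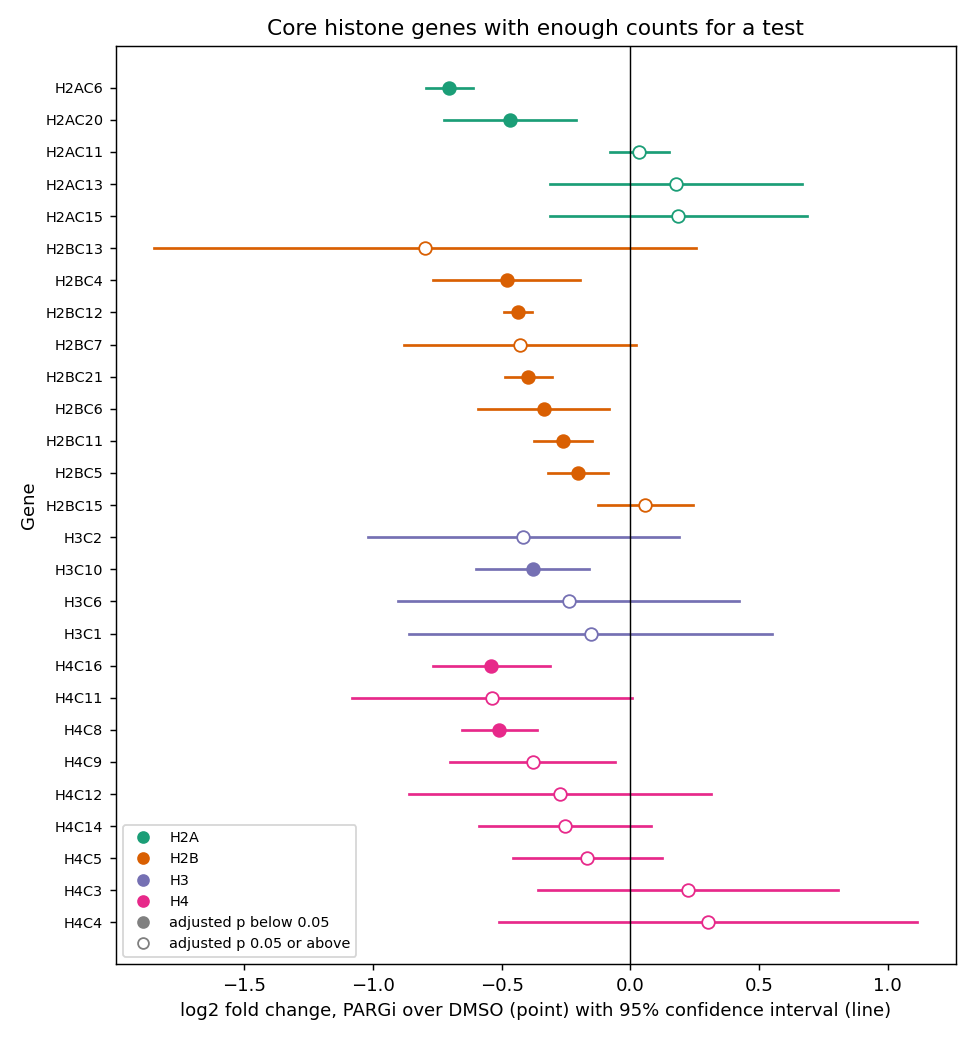
The log2 fold change of PARGi over DMSO (horizontal axis, with its 95% confidence interval) is shown for the 27 tested core histone genes, coloured by type and filled where the edgeR adjusted p was below 0.05. The 11 filled points all lie left of 0, from -0.70 for H2AC6 to -0.20 for H2BC5, and the 6 genes right of 0 are all open.

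Of the 5 tested H2A genes 2 fell, where 11.0% of all tested genes were called lower. H2AC6, on chromosome 6 (26124145 to 26139116, plus strand, GENCODE 29 on GRCh38), had 22.2, 21.8 and 22.7 CPM in DMSO and 13.6, 14.1 and 13.3 CPM in PARGi. It fell by 38.6%, the largest drop among the 11 genes called (log2FC -0.70 ± 0.044 SE, adjusted p by edgeR = 2.83e-11), and it held 54.7% of all H2A counts. H2AC20, an H2A gene of the chromosome 1 cluster (149886975 to 149887364), had 2.85, 3.42 and 2.70 CPM in DMSO and 2.53, 2.10 and 1.90 CPM in PARGi. Its groups were separate but close, at a log2 fold change of -0.47 (SE 0.12, adjusted p by edgeR = 0.00696). Without PARGi replicate 3 the value was -0.37 and no longer passed (edgeR adjusted p = 0.0614).

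H2AC11, the next most counted H2A gene, was at 10.2, 11.0 and 10.3 CPM in DMSO and at 10.8, 10.7 and 10.8 CPM in PARGi. The groups overlapped, and its log2 fold change of 0.035 is bounded at 95% confidence by -0.078 and 0.15 (adjusted p by edgeR = 0.701). The 2 other tested H2A genes were less precise: H2AC13 had a log2 fold change of 0.18 (SE 0.24) and H2AC15 one of 0.19 (SE 0.24). Without DMSO replicate 2, the value of H2AC13 was -0.066, and without PARGi replicate 2 that of H2AC15 was 0.043. H2A transcripts as a sum went from 37.3 ± 0.229 to 28.2 ± 0.561 CPM, a log2 difference of -0.40 with separate groups. That difference rested on H2AC6: the other 14 H2A genes together had 15.1 ± 0.629 CPM in DMSO and 14.5 ± 0.406 CPM in PARGi, with overlapping groups and a log2 difference of -0.051.

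H2B genes held 71.7% of all core histone counts, and 6 of the 9 tested fell, against 11.0% of all tested genes. H2BC12 (ENSG00000197903.8, chromosome 6, 27146418 to 27146798, minus strand) alone held 44.1%, between 43.0% and 45.1% in single libraries. It had 92.0, 91.5 and 92.5 CPM in DMSO and 67.5, 68.5 and 68.1 CPM in PARGi, so that the groups stood far apart compared with their spread. It fell by 26.0% (log2FC -0.44 ± 0.026 SE, adjusted p by edgeR = 1.4e-11). H2BC21, in the chromosome 1 cluster (149884459 to 149886652, minus strand), had 20.2, 21.2 and 19.9 CPM in DMSO and 15.6, 15.5 and 15.6 CPM in PARGi. That is a log2 fold change of -0.40 (SE 0.044, adjusted p by edgeR = 3.52e-07), close to that of H2BC12.

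The smaller falls among H2B genes were those of H2BC11 and H2BC5, both on chromosome 6. H2BC11 had 12.5 CPM in each DMSO library and 10.6, 9.85 and 10.9 CPM in PARGi (log2FC -0.26 ± 0.054 SE, adjusted p by edgeR = 0.000919). H2BC5 had 12.8, 13.3 and 12.2 CPM in DMSO and 10.3, 11.4 and 11.4 CPM in PARGi (log2FC -0.20 ± 0.056 SE, adjusted p by edgeR = 0.0101). The 3 lowest H2BC5 values are the PARGi libraries, but without PARGi replicate 1 the log2 fold change was -0.16 and did not pass (edgeR adjusted p = 0.068). H2BC4 went from 2.19 ± 0.262 to 1.56 ± 0.226 CPM (log2FC -0.48 ± 0.14 SE, adjusted p by edgeR = 0.0128). Its call was lost without DMSO replicate 1 (-0.39) and without PARGi replicate 2 (-0.38).

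H2BC6 went from 2.40 ± 0.161 to 1.89 ± 0.213 CPM, just past the threshold (log2FC -0.34 ± 0.12 SE, adjusted p by edgeR = 0.0475). Its call was lost with any of the 6 libraries left out, at log2 fold changes from -0.40 to -0.26, and with DESeq2 (adjusted p = 0.0843) and limma-voom (adjusted p = 0.0544). H2BC5 and H2BC6 overlap an annotated gene on the opposite strand, and the strand setting of the counting is not given in the sources used here.

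Of the 3 tested H2B genes not called, H2BC15 was at 3.37, 3.85 and 3.68 CPM in DMSO and 3.88, 3.69 and 3.79 CPM in PARGi, with overlapping groups (log2 fold change 0.059, 95% confidence interval -0.13 to 0.24). Its model overlaps H2AC15 on the opposite strand and H2AC16 on its own. H2BC7 (-0.43, SE 0.22) and H2BC13 (-0.80, SE 0.51, on 48 counts) had intervals that include 0. The value of H2BC13 was -0.30 without PARGi replicate 3 and -1.49 without PARGi replicate 1. The H2B sum went from 147 ± 0.93 to 113 ± 1.25 CPM, a log2 difference of -0.38. Without H2BC12 it went from 55.0 ± 1.43 to 45.0 ± 1.07 CPM, and the groups were still separate, at -0.29.

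**Figure D2:**
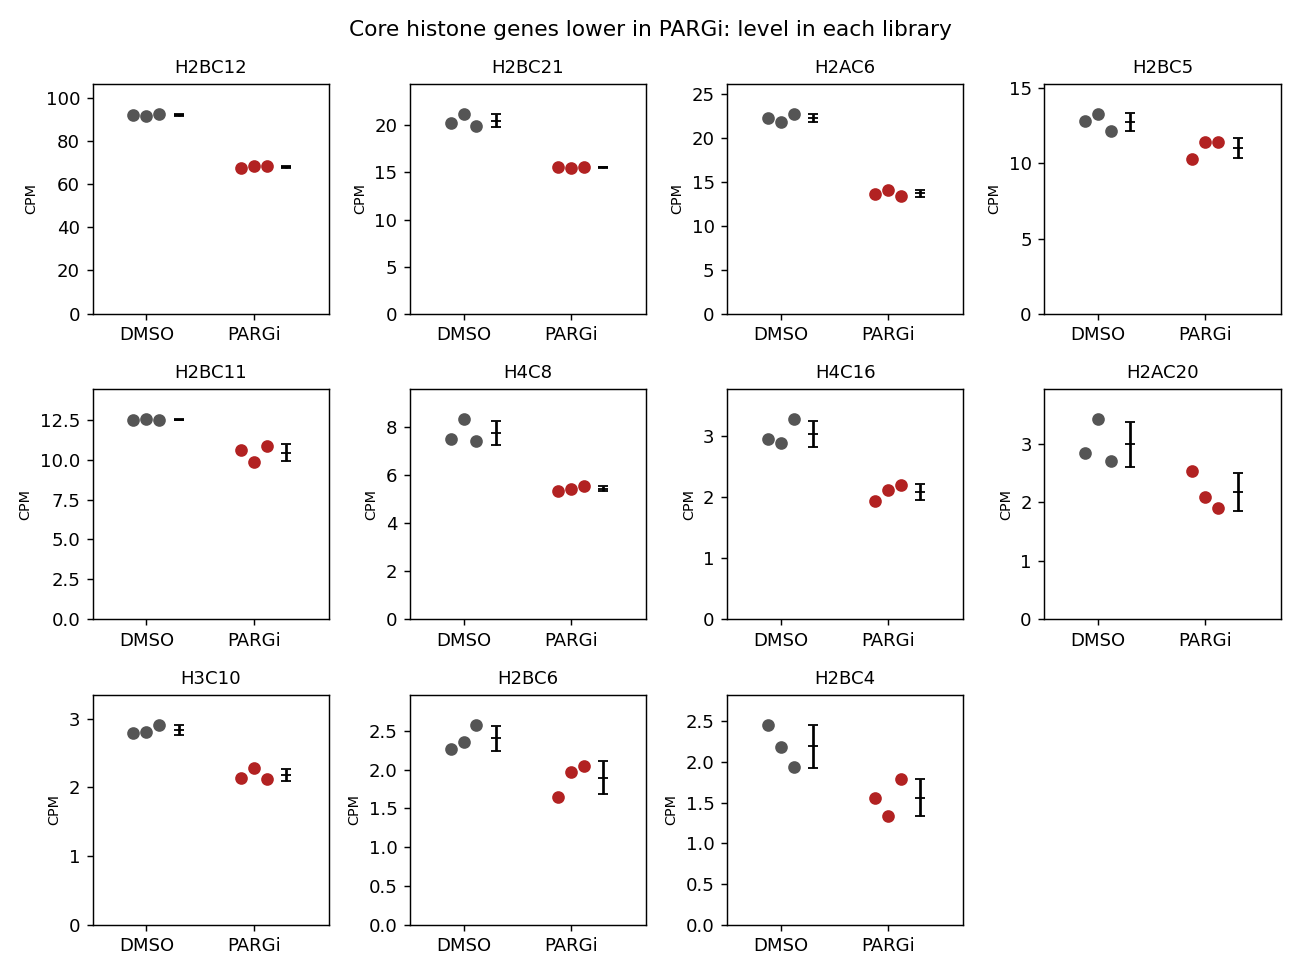
Levels in CPM (vertical axes from 0) of the 11 core histone genes called lower, with a point per library and a bar for the mean and SD of the 3 libraries of a group. In each of the 11 panels all PARGi points lie below all DMSO points, with 91.5 against 68.5 CPM for the nearest points of H2BC12 and 2.70 against 2.53 CPM for those of H2AC20.

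H3 genes gave 2.01% of the core histone counts, so that single genes were measured less well. H3C10 on chromosome 6 (27810064 to 27811300, plus strand) held 68.7% of them, with 2.79, 2.81 and 2.92 CPM in DMSO and 2.13, 2.29 and 2.13 CPM in PARGi. The groups were separate and H3C10 fell, by 0.38 on the log2 scale (SE 0.11, adjusted p by edgeR = 0.0105). H3C1 (-0.15, SE 0.34), H3C2 (-0.41, SE 0.29) and H3C6 (-0.24, SE 0.32) did not pass. H3C2 was at -0.20 without PARGi replicate 2 and at -0.71 without PARGi replicate 1. The sign of H3C1 turned without DMSO replicate 2 (0.0054) or PARGi replicate 1 (0.11), and that of H3C6 without DMSO replicate 2 (0.081) or PARGi replicate 2 (0.079). As a sum, H3 transcripts went from 4.08 ± 0.225 to 3.23 ± 0.124 CPM, a log2 difference of -0.34.

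H4 genes, of which nearly all encode the same protein, gave 8.30% of the counts. H4C8 on chromosome 6 (26277609 to 26285638, minus strand) had 7.48, 8.32 and 7.42 CPM in DMSO and 5.34, 5.41 and 5.53 CPM in PARGi. It fell by 29.7% (log2FC -0.51 ± 0.070 SE, adjusted p by edgeR = 7.24e-06). H4C16, the single member on chromosome 12 (14767999 to 14771131, minus strand), had 2.95, 2.89 and 3.28 CPM in DMSO and 1.93, 2.12 and 2.20 CPM in PARGi. It fell to a like degree (log2FC -0.54 ± 0.11 SE, adjusted p by edgeR = 0.000687). Both genes have the H4 form of the stem-loop printed above for H4C8.

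The 7 other tested H4 genes did not pass. H4C11 had separate groups, 0.477 ± 0.0638 CPM in DMSO and 0.327 ± 0.0528 CPM in PARGi, but on 168 counts its log2 fold change of -0.54 was not past the threshold (SE 0.26, adjusted p by edgeR = 0.149). H4C9 was at -0.38 (SE 0.15, adjusted p by edgeR = 0.0783), at -0.24 without DMSO replicate 3, and at -0.50 without DMSO replicate 2, where it passed (edgeR adjusted p = 0.0193). The other 5 ran from -0.27 for H4C12 through H4C14 (-0.25), H4C5 (-0.17) and H4C3 (0.23) to H4C4 at 0.30, with intervals that include 0. Single libraries moved them: without PARGi replicate 3, H4C12 was at -0.070, H4C5 at -0.073, H4C3 at 0.017 and H4C4 at 0.17. H4C14 was at -0.13 without PARGi replicate 1, and H4C12 at -0.59. The H4 sum went from 17.2 ± 0.38 to 12.9 ± 0.288 CPM, a log2 difference of -0.41.

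The 4 types thus had like differences as sums, from -0.41 for H4 to -0.34 for H3, and whether the types differ was not tested. Their shares of the core histone counts also stayed alike in the 6 libraries: H2A took 17.4% to 18.3%, H2B 71.3% to 72.3%, H3 1.88% to 2.11% and H4 8.05% to 8.51%. In each type the most counted gene was called lower, and without it the log2 difference of the type came to -0.051 for H2A, -0.29 for H2B, -0.25 for H3 and -0.34 for H4.

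**Figure D3:**
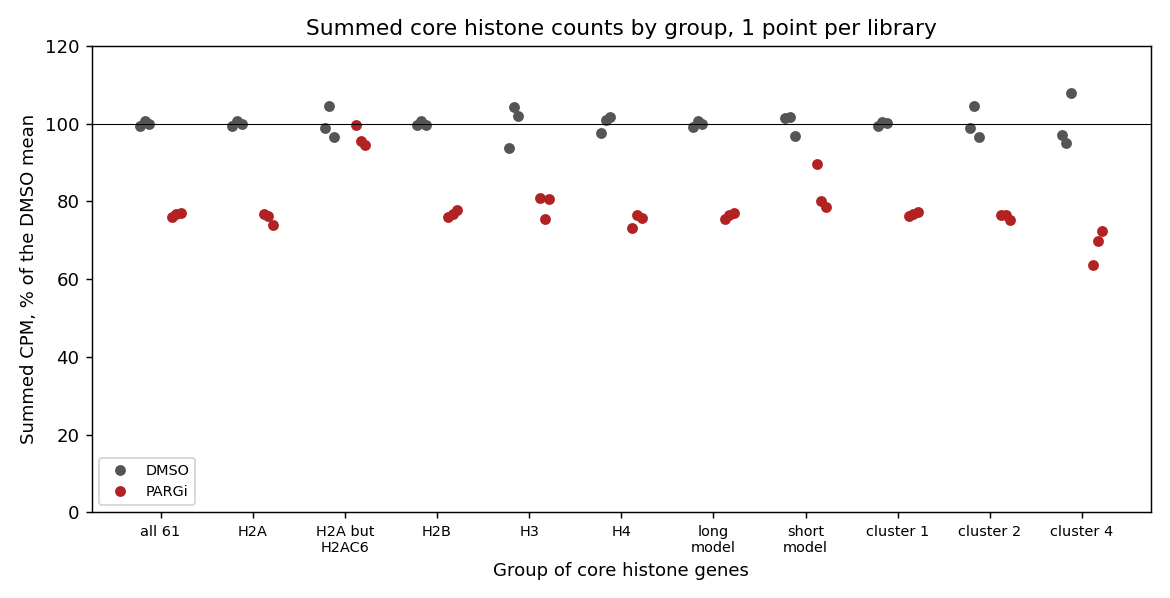
Summed CPM of groups of core histone genes, as a percentage of the mean of the 3 DMSO libraries (vertical axis from 0), with 1 point per library. In each group but H2A without H2AC6, the PARGi points lie below the DMSO points, and for H2A without H2AC6 they overlap.

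By position, 49 members lie in cluster 1 on chromosome 6 (25726132 to 27893843), 9 in cluster 2 on chromosome 1 (149782689 to 149887916), 2 in cluster 3 on chromosome 1 (228456979 to 228460470) and 1, H4C16, stands alone on chromosome 12. Cluster 1 went from 177 ± 0.942 to 136 ± 0.96 CPM (log2 difference -0.38), and 8 of its 23 tested members fell. Cluster 2 went from 25.2 ± 1.01 to 19.1 ± 0.203 CPM (-0.40), and 2 of its 3 tested members fell. Over all tested genes, 11.0% were called lower. The sums of clusters 1 and 2 had separate groups, as had H4C16. Cluster 3 had 7 counts in total, too few for a comparison.

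Other protein-coding genes inside the clusters lay on both sides of 0. Of 19 such genes 12 were tested, 1 rose and 1 fell, and the median log2 fold change was -0.042. By the same test 13.2% of all tested genes rose and 11.0% fell. TRIM38, a ubiquitin ligase gene, rose from 26.9 ± 0.382 to 31.5 ± 0.593 CPM (log2FC 0.23 ± 0.036 SE, adjusted p by edgeR = 5.47e-05). BTN3A2, which encodes a butyrophilin, fell from 6.61 ± 0.241 to 5.32 ± 0.152 CPM (log2FC -0.31 ± 0.071 SE, adjusted p by edgeR = 0.00198).

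Counts were concentrated in few members. H2BC12, H2BC21, H2AC6, H2BC5 and H2BC11 together held 76.8% of them, 34 members had too few counts for a test, and 13 of these 34 were at 0 in all 6 libraries. The 21 untested members with a count had 1 to 50 counts each: H2AC21, H4C15, H2AC12, H2AC14, H4C2, H4C1, H2AC4, H2BC18, H2BC14, H3C13, H2AC7, H2BC26, H2BC8, H2AC17, H3C12, H2BC3, H2AC8, H2BC17, H3C3, H3C14 and H3C15. Summed over the 34, counts came to 0.997 ± 0.133 CPM in DMSO against 0.705 ± 0.115 CPM in PARGi, with separate groups.

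The zeros lay in runs along chromosome 6. H4C6, H4C7, H3C7, H2BC9, H3C8 and H2BC10 are neighbours among the core histone genes (26240426 to 26273356), and all 6 were at 0, between H3C6 with 186 counts and H4C8 with 2722. H2AC16, H3C11 and H4C13 form a run of 3, and H2AC1 and H2BC1, which are known as testis genes, one of 2. H3C4 and, on chromosome 1, H2AC25 were at 0 as well. A count of 0 allows up to 0.0372 to 0.0498 CPM in these libraries, for counting error only. Reads that match several copies or overlapping genes may be missing from such rows, and their part in the zeros was not tested.

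**Figure D4:**
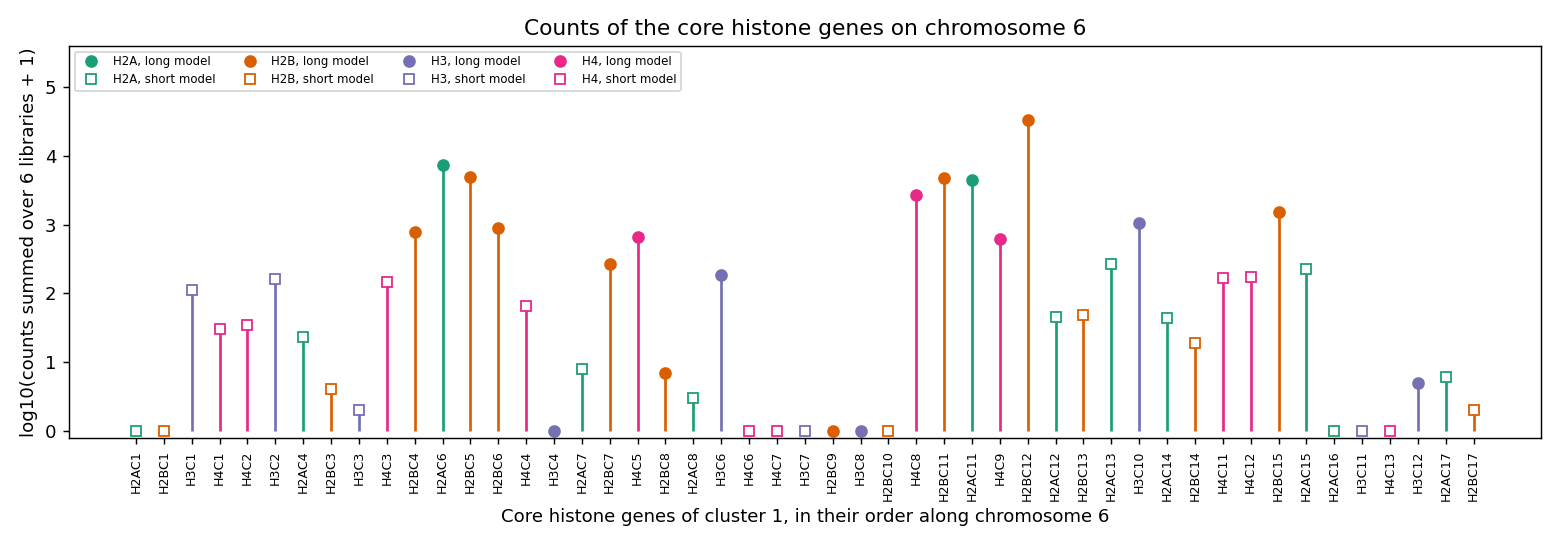
Counts summed over the 6 libraries, as log10(counts + 1), for the 49 core histone genes of cluster 1 in their order along chromosome 6. Filled circles are genes with an annotated span over 1000 bases and open squares shorter ones. The run of 6 genes at 0 sits between H3C6 and H4C8, and the tallest point is H2BC12 with 33138 counts.

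Most counts lay in genes with long annotated models, although 24 long and 24 short members had a count. A split at a span of 1000 bases in GENCODE 29 or RefSeq, chosen after the counts were seen, put 27 members in the long class, and these held 96.4% of the core histone counts (95.9% to 96.7% in single libraries). H2BC12 is long only in RefSeq, with 8566 bases against 381 in GENCODE 29. Levels here are not divided by length, and a longer model collects more reads. Long members went from 198 ± 1.52 to 151 ± 1.37 CPM (log2 difference -0.39), and 10 of their 17 tested genes fell. Short members went from 7.11 ± 0.196 to 5.88 ± 0.425 CPM (-0.27) with separate groups, and 1 of their 10 tested genes, H2AC20, fell. By the same test 11.0% of all tested genes fell, close to the share of short members. The other tested short genes had 48 (H2BC13) to 264 (H2AC13) counts and SEs of 0.24 to 0.51. The number of calls in each class thus also depends on precision.

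By exons in GENCODE 29, the 13 members with a transcript of 2 or more exons went from 68.6 ± 0.778 to 51.6 ± 1.2 CPM (log2 difference -0.41), and 7 of their 10 tested genes fell. The 46 with single-exon transcripts went from 137 ± 0.817 to 105 ± 0.317 CPM (-0.37), and 4 of 16 fell. Over all tested genes, 11.0% were called lower. H2BC12 gave most of the single-exon sum, and without it (a sum added after the values were seen) the class went from 44.6 ± 1.21 to 37.4 ± 0.478 CPM (-0.25). Its identifier has another version in the files than in GENCODE 29, so the model that was counted is not known. A polyadenylation hexamer at an annotated end was found for 8 of the 11 genes called lower, 6 of 15 tested but not called and 7 of 33 not tested, and genes with it held 50.0% of the core histone counts. Models limited to the coding part, such as the 381 bases of H2BC12 and the 390 of H2AC20, cannot show such a hexamer. These numbers therefore also depend on how far the annotation reaches. The counts are per gene, so transcripts that end at the stem-loop and longer ones cannot be told apart within a gene.

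Many H2A and H2B genes lie head to head and share 1 stretch of promoter. Among the 56 members with an entry in the RefSeq promoter table (GRCh38.p14), 12 pairs had start sites 194 to 248 bases apart on opposite strands, 11 of them an H2A with an H2B gene. H2BC7 is paired both with H2AC7 and with H3C4, which are listed with the same start site. H2AC12 (chromosome 6, 27147129 to 27147515, plus strand) had no entry, so a pair with H2BC12 could not be looked for. In 5 pairs both genes were tested. H2BC21 and H2AC20 both fell (-0.40 and -0.47), as did H2BC4 and H2AC6 (-0.48 and -0.70). H2BC11 fell (-0.26) while its partner H2AC11 was at 0.035 and not called, and the difference between them was not tested. In the pairs of H2BC13 with H2AC13 and of H2BC15 with H2AC15 neither gene was called.

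The promoters were searched for 3 motifs on both strands in 300 bases, 250 before the start site and 50 after it. CCAAT, read as ATTGG on the other strand, stood in 82.1% of the 56 core histone promoters and 34.6% of 35116 promoters in the table. It was in all H2A, H2B and H3 promoters with an entry and in 3 of 13 H4 promoters. TATAAA, which reads TTTATA in reverse, stood in 66.1% against 11.5%. The octamer ATTTGCAT, or ATGCAAAT on the other strand, known from H2B promoters as a site for POU2F1, stood in 46.4% against 1.77%: in 11 of 14 H2A, 14 of 18 H2B, 1 of 11 H3 and 0 of 13 H4 promoters. Matches of TATAAA and TTTATA can overlap. H3C11, H3C12, H4C1, H4C3 and H2AC12 had no entry.

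The 250 bases before the start site are shown for H2BC12, with most counts, for H2AC6, with the largest fall, for H2AC11, which was not called, and for H2AC20, the short gene that fell. Matches to any of the 3 motifs on either strand are in capitals, the sequence is that of the gene's own strand, and the 3 H2A windows hold the start site of the partner gene H2BC4, H2BC11 or H2BC21.
H2BC12 (chr6:27146859-27147108, minus strand): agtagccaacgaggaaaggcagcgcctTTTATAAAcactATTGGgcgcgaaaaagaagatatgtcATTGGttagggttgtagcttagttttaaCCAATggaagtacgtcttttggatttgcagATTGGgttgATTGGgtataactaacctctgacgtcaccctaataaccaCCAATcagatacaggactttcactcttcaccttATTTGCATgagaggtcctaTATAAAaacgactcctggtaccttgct
H2AC6 (chr6:26123922-26124171, plus strand): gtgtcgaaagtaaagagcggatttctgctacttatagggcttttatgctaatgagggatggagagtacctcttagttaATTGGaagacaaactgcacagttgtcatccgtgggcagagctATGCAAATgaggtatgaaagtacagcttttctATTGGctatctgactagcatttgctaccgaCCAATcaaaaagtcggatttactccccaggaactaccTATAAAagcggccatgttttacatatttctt
H2AC11 (chr6:27132793-27133042, plus strand): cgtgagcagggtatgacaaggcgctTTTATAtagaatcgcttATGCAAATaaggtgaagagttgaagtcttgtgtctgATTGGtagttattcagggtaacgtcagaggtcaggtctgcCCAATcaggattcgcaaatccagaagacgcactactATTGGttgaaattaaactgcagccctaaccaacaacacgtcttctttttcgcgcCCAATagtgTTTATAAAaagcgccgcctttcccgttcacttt
H2AC20 (chr1:149886668-149886917, plus strand): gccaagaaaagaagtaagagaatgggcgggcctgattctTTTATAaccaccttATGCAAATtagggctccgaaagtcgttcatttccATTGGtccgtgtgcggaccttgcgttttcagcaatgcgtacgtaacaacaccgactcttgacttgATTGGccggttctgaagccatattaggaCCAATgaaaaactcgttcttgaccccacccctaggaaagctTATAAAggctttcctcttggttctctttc
All 4 windows hold each of the 3 motifs. The TATAAA nearest the start site begins 27 bases before it in H2BC12, 31 before it in H2AC6 and H2AC11, and 29 before it in H2AC20. The octamer begins 46 bases before the start site in H2BC12, 130 before it in H2AC6, 197 in H2AC20 and 208 in H2AC11. The start sites of H2AC20 and H2AC11 lie 236 and 248 bases from those of their partners. In these windows the octamer is thus closer to the partner's start site. The window of H2AC11, which was not called, holds the same 3 motifs as those of the 3 genes that fell, but not all at the same distances. Which gene of a pair a motif serves was not tested. ATTTGCAT was in the window of 7 of the 11 genes called lower, 2 of 15 tested but not called and 17 of 30 not tested. CCAAT was in that of 9 of 11, 10 of 15 and 27 of 30, and TATAAA in that of 10 of 11, 9 of 15 and 18 of 30. The octamer stood in 1 of 11 H3 and 0 of 13 H4 promoters, and CCAAT in 3 of 13 H4 promoters. The splits by call thus also follow histone type, and a link of motif and call was not tested.

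Linker histones, which bind outside the nucleosome core, have replication-dependent genes in the same clusters. Of these 6 genes 2 were tested: H1-2 fell further than any core histone gene called (from 35.8 ± 0.553 to 18.1 ± 0.549 CPM, log2FC -0.98 ± 0.039 SE, adjusted p by edgeR = 1.18e-14). H1-4, on far fewer counts, was at -0.46 (SE 0.29) and did not pass. H1-3, H1-5 and H1-6 were at 0.

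Replacement variants are histone genes expressed outside S phase too, and most of their mRNAs carry poly(A) tails. Of 11 tested genes 5 fell and 1 rose, where 11.0% of all tested genes were called lower and 13.2% higher. The share called lower was thus above that of all tested genes, as for the core histone genes. The median log2 fold change of the 11 was 0.0032. H1-10, a linker variant, fell from 354 ± 8.1 to 284 ± 14.9 CPM (log2FC -0.32 ± 0.030 SE, adjusted p by edgeR = 3.43e-08). H3-3B, which encodes the replacement histone H3.3, fell by a smaller amount (log2FC -0.11 ± 0.023 SE, adjusted p by edgeR = 0.000953).

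H2AZ1 (log2FC 0.049 ± 0.023 SE, adjusted p by edgeR = 0.128) and H2AX (log2FC 0.050 ± 0.034 SE, adjusted p by edgeR = 0.327) did not pass. The sum of the H2A members was at -0.40, but at -0.051 without H2AC6, with overlapping groups. H2AJ, another H2A gene of this list, fell (log2FC -0.19 ± 0.043 SE, adjusted p by edgeR = 0.00224). MACROH2A2 rose, with a log2 fold change of 0.092 (SE 0.026, adjusted p by edgeR = 0.0105). That call was lost with upper-quartile scaling (0.068) and without PARGi replicate 1 (0.084).

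The factors that transcribe, process and degrade histone mRNA, 34 genes and all of them tested, had 6 members called higher and 2 lower, with the median at 0.020. Over all tested genes, 13.2% were called higher and 11.0% lower, so these counts are not far from the general shares. NPAT was at 38.8, 41.7 and 38.0 CPM in DMSO and 40.7, 40.9 and 40.9 CPM in PARGi (0.049, 95% confidence interval -0.025 to 0.12, edgeR adjusted p = 0.357). SLBP was at 57.5, 57.7 and 56.5 CPM in DMSO and 59.0, 56.2 and 55.9 CPM in PARGi (-0.0060, 95% confidence interval -0.069 to 0.057, edgeR adjusted p = 0.917). Both genes thus had overlapping groups, and their intervals exclude a change in RNA as large as that of the core histone sum. The amount and activity of their proteins were not measured in these libraries.

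CCNE1, which encodes cyclin E1, rose from 78.2 ± 0.765 to 93.4 ± 0.47 CPM (log2FC 0.26 ± 0.026 SE, adjusted p by edgeR = 8.45e-08). Its kinase CDK2 rose from 124 ± 2.4 to 143 ± 1.11 CPM (log2FC 0.20 ± 0.026 SE, adjusted p by edgeR = 2.09e-06). The lower factors were CSTF2T, a cleavage factor gene (log2FC -0.10 ± 0.034 SE, adjusted p by edgeR = 0.0337), and TUT4, which encodes a uridylyltransferase (log2FC -0.078 ± 0.027 SE, adjusted p by edgeR = 0.0337). CSTF2T kept its call in 9 and TUT4 in 7 of 14 alternatives. With a single library left out, CSTF2T ran from -0.13 to -0.078, without a call when DMSO replicate 1 or 3 or PARGi replicate 2 or 3 was missing. TUT4 ran from -0.090 to -0.071, with a call only when DMSO replicate 2 was missing.

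Genes of S phase and DNA replication were called higher more often than lower. Of 37 such genes, all tested and CCNE1, CCNE2 and CDK2 among them, 16 rose and 4 fell, with a median log2 fold change of 0.060 against -0.34 for the core histone genes. Among all tested genes 13.2% were called higher and 11.0% lower. RRM2, a subunit of ribonucleotide reductase, rose from 323 ± 2.71 to 392 ± 2.39 CPM (log2FC 0.28 ± 0.023 SE, adjusted p by edgeR = 3.47e-09). PCNA, the sliding clamp of DNA polymerase, rose from 237 ± 3.69 to 250 ± 2.5 CPM (log2FC 0.074 ± 0.024 SE, adjusted p by edgeR = 0.0278). The helicase subunit gene MCM6 fell (log2FC -0.20 ± 0.027 SE, adjusted p by edgeR = 8.7e-06), as did the transcription factor gene E2F2 (log2FC -0.21 ± 0.037 SE, adjusted p by edgeR = 0.000151). PCNA lost its call with upper-quartile scaling (0.050), among protein-coding genes alone (0.059) and without any 1 of the libraries other than DMSO replicate 2 (0.063 to 0.083).

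**Figure D5:**
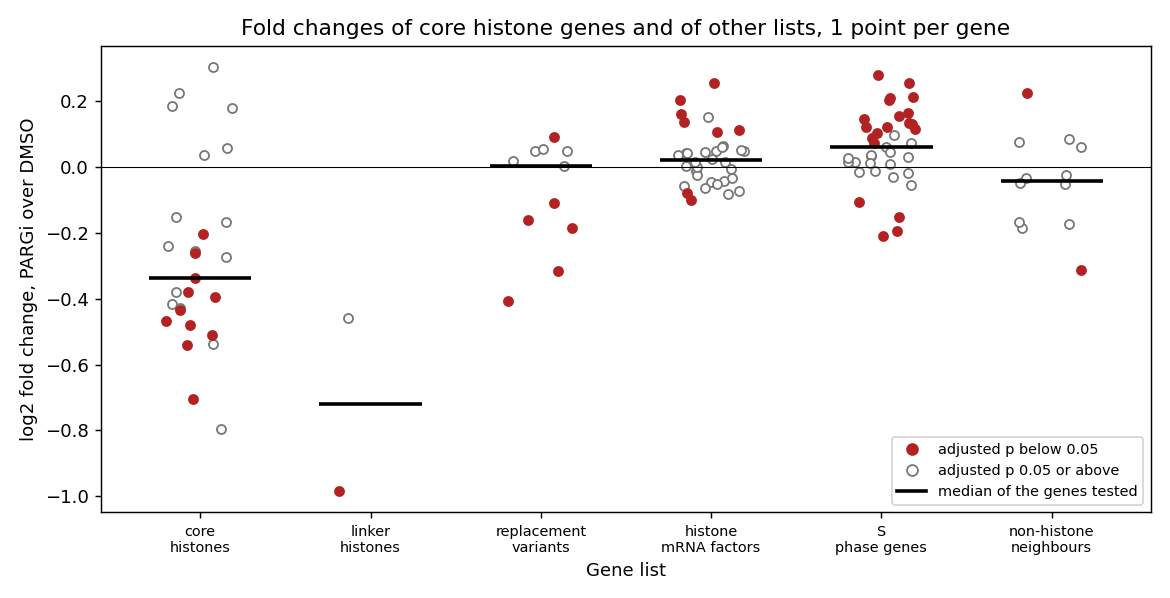
Log2 fold change of PARGi over DMSO (vertical axis) for the tested genes of 6 lists, 1 point per gene, filled where the edgeR adjusted p was below 0.05, with a bar at the median. The core histone genes have their median at -0.34 and the 2 tested linker histone genes at -0.72, and the replacement variants, the histone mRNA factors, the S phase genes and the neighbours have theirs between -0.042 and 0.060.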

How the data were processed

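The files hold raw whole-number counts per gene, 1 column per library, which the authors deposited without normalisation. Per the submitters' processing notes, cutadapt 1.18, STAR 2.7.3a, SAMtools 1.9, DESeq2 3.12 (version as given), deepTools and hg38 were used, with no roles. The annotation release, the strand setting and the treatment of reads matching several genes are not given in the sources used here. Groups came from the sample titles.

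The table of gene names held 60463 of the 60708 identifiers. Positions and transcripts came from GENCODE 29, which held 58396 identifiers and all members but H3C2 and H3C3, and from RefSeq for those. Counts were filtered with filterByExpr, scaled by TMM and tested with glmQLFTest of edgeR 4.0.16 (R 4.3.3) on 3 against 3 libraries. Adjustment after Benjamini-Hochberg covered 20409 genes. The script was tested on simulated data. Summed levels have no test. Alternatives used DESeq2 1.42.0, limma-voom (limma 3.58.1), other scalings and filters, protein-coding genes alone, the replicate number as a block, single libraries left out, and sums over other sets of members. Figures were drawn with matplotlib 3.10.9.

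The members and the lists were chosen with earlier results of these data known. The rule for named genes took every tested member, SLBP, NPAT, H1-2, H2AZ1, H3-3B, H2AX, PCNA and CCNE1, and from each other list up to 2 genes called in each direction with the smallest p (up to 3 for neighbours). 1 gene that the rule selected is not reported here. H1-4, H2AJ, EPCAM and the called cell type markers were named after their values were seen. No molecular identifiers are recorded, so limits from counts cover counting error only.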

Additional observations from a re-analysis of the deposited data

How the results depend on the processing

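The count of core histone genes called lower was 9 to 11 over 14 alternatives, 9 to 11 with a single library left out, and 0 were called higher in any. Of the 11 genes called, 7 stayed past the threshold in every alternative and all 11 stayed below 0. The exceptions were H2AC20, H2BC4, H2BC5 and H2BC6, with values given above. No pairing by replicate number was seen: deviations of same-numbered libraries correlated at -0.00585, 0.0157 and -0.00784 across genes, and those of other pairs at -0.0286 to 0.0354. Such values cannot tell whether same-numbered libraries shared a culture or day, which the labels do not say. With the replicate number as a block, 10 genes were lower and 0 higher, and H2BC6 (-0.34) lost its call. Upper-quartile scaling moved the log2 differences to -0.41 for all members, -0.43 for H2A, -0.40 for H2B and -0.41 for cluster 1. Leaving out the most counted member gave -0.35 for all members, -0.051 for H2A, -0.29 for H2B, -0.25 for H3, -0.34 for H4 and -0.33 for cluster 1. With a single library left out, the difference ran from -0.39 to -0.38 for all members, -0.41 to -0.39 for H2A, -0.39 to -0.37 for H2B, -0.38 to -0.31 for H3, -0.43 to -0.39 for H4, -0.39 to -0.38 for cluster 1, -0.42 to -0.36 for cluster 2 and -0.58 to -0.48 for H4C16. Signs turned for genes not called: H3C1 ran from -0.35 to 0.11, H3C6 from -0.48 to 0.081, H2AC13 from -0.066 to 0.33 and SLBP from -0.031 to 0.0094 (0.00026 without DMSO replicate 2, 0.0046 without PARGi replicate 2). The cause of these shifts was not tested. Counts were too few for a test in 34 members, and the SE of the 16 tested but not called ran from 0.055 (H2AC11) to 0.51 (H2BC13).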
